A study of Mus musculus with 4 samples.

Results

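NRF2, encoded by Nfe2l2, is the transcription factor that drives the oxidant response, and its transcripts and those of its inhibitor and targets were followed across the cell classes of injured mouse kidneys. The members were 9 of the 57132 genes in the deposited matrices, chosen by gene symbol: Nfe2l2, Keap1, Nqo1, Gclc, Gclm, Txnrd1, Srxn1, Osgin1 and Me1. Kidneys of 4 wild-type mice, all after contrast-induced acute kidney injury, were dissociated fresh and each gave 1 droplet library. The sample titles number the libraries as biological replicates of a single group. All were entered as batch 1, but the titles name no batch. No untreated kidney was analysed here, so each comparison was between cell classes of injured kidneys and none measured an effect of contrast. Strain, sex, age, contrast agent, dose and time after injury are each not given in the sources used here.

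In resting cells KEAP1 holds NRF2 in the cytoplasm and has it degraded. Oxidants and electrophiles modify cysteines of KEAP1, NRF2 then escapes and pairs with small MAF proteins at antioxidant response elements beside its target genes. Since this control acts on the protein, the level of Nfe2l2 transcript is not a measure of NRF2 activity. The targets supply glutathione, reduced thioredoxin, NADPH and quinone reductases, on which kidney tubules, with their oxidative metabolism and exposure to toxins, are known to depend.

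The libraries of mice 1 to 4 held 36831995 to 105436725 unique molecular identifiers (UMIs, counts of captured transcripts). After filters 40826 cells were kept and fell into 37 clusters. Marker genes named 13 classes, written as "-like" below, and 11 of them had 20 cells or more in all 4 mice. The classes were named from several tubular, vascular and blood cell markers each, while 5 clusters with 2369 cells stayed unnamed. Mouse 4 stood apart: its median was 2077 UMIs per cell against 5549 to 5777 in the others, the median share of ribosomal protein genes was 13.7% against 1.48% to 2.35%, and it shared 1 cell barcode with the other libraries while they shared 23 to 54 with each other. Whether the library of mouse 4 was prepared in the same way or batch as the others was not tested. Mouse 3 formed clusters of its own among neutrophil-like, macrophage-like, endothelial-like and proximal tubule-like cells. Mouse 4 held nearly all of T and NK lymphocyte-like clusters 3 and 12 and most of macrophage-like cluster 1 and endothelial-like cluster 4. Levels below are CPM, the UMIs of a gene after scaling those of its class to a fixed total of 1e+06, in each mouse, and values are set against each other within a gene, not between genes.

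Promoter windows of 8 of the 9 members were found in RefSeq (GRCm38.p6), each running from 250 bases before to 50 bases after a transcription start. Gclc had no entry. They are shown because NRF2 is known to act through the antioxidant response element, whose core was searched as TGACNNNGC and as the variant TGAGNNNGC on both strands (a match of one can overlap a match of the other). Some members had several windows. Of 11 windows of the 8 members, 6 held a match, each in a different member. The windows of Keap1 and Nqo1 held none, and sequence outside the windows was not searched. Across all 32851 windows of the same length, 12.4% held TGACNNNGC, 17.6% TGAGNNNGC and 27.8% either. Capitals mark the match, on either strand, in the 5 targets and in Nfe2l2 itself:
Gclm, chr3:122245373-122245481, plus strand: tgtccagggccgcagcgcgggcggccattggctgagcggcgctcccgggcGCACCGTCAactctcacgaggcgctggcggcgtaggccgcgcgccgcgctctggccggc
Txnrd1, chr10:82859064-82859172, plus strand: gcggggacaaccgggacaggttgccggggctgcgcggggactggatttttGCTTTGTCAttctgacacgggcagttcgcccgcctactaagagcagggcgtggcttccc
Srxn1, chr2:152105316-152105533, plus strand: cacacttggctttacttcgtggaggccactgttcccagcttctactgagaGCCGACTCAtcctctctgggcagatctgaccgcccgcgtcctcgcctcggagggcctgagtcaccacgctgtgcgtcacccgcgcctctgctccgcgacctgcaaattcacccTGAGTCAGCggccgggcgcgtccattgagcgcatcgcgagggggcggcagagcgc
Osgin1, chr8:119436998-119437106, plus strand: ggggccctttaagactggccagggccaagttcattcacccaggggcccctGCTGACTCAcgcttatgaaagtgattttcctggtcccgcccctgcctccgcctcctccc
Me1, chr9:86695905-86695970, minus strand: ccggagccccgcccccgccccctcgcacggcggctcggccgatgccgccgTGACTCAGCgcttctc
Nfe2l2, chr2:75704845-75704913, minus strand: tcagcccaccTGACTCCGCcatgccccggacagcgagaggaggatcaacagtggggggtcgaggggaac

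The matches began 134 bases before the start in Gclm, 92 in Txnrd1, 158 and 45 in Srxn1, 99 in Osgin1, 6 in Me1 and 240 in Nfe2l2. Srxn1 had 3 matches in its window, of which the stretch shown holds 2; the third, to TGACNNNGC on the minus strand, began 28 bases after the start. Such a match describes letters in the window and is not evidence of binding in these cells.

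**Figure D1:**
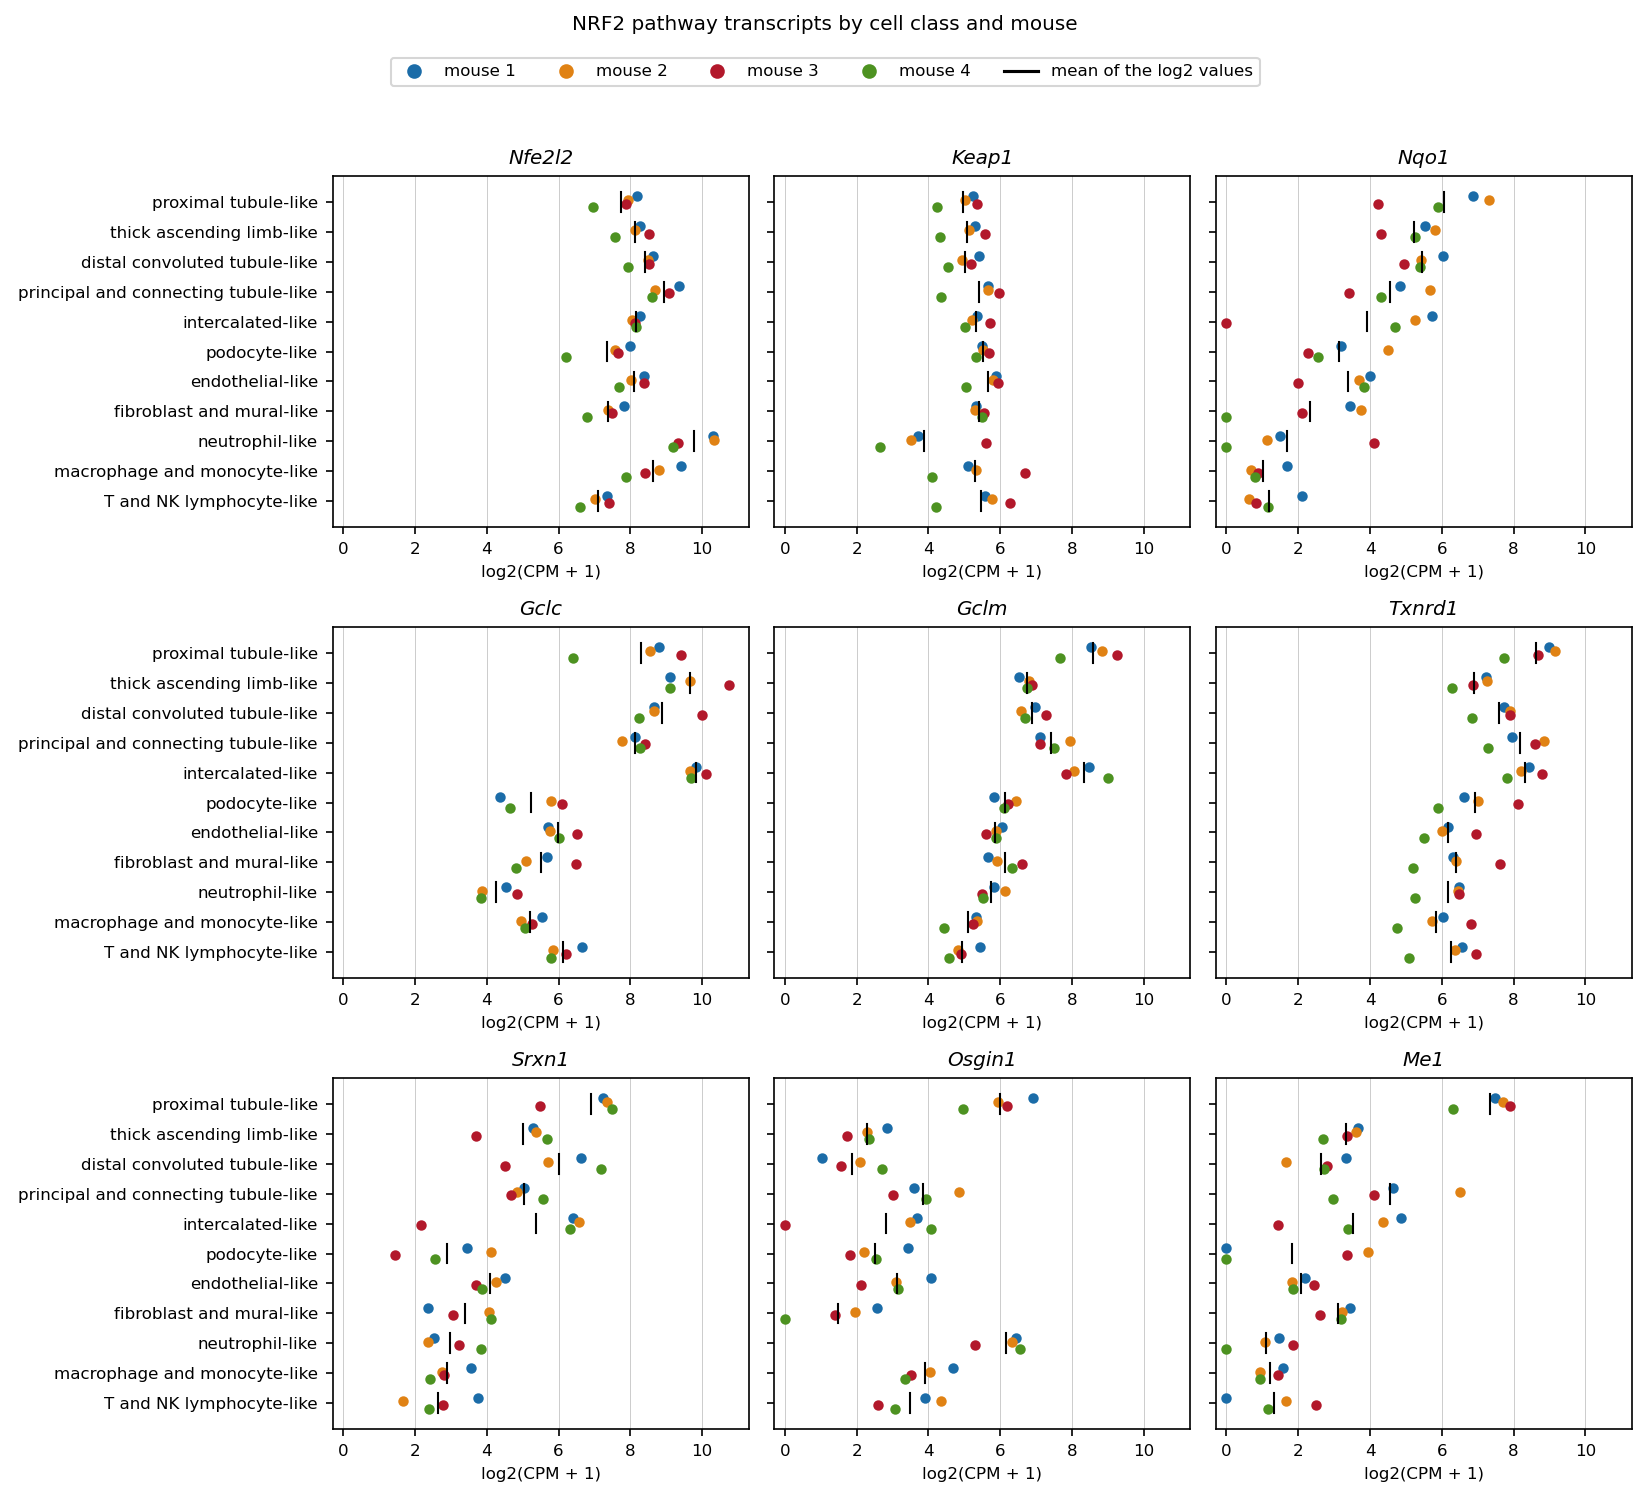
Level of each member in the 11 classes present in all 4 mice, as log2(CPM + 1) on the horizontal axis, with 1 point per mouse and a black line at the mean of the 4 log2 values. Nfe2l2 is highest in neutrophil-like cells of every mouse, while Me1 and Srxn1 are highest in proximal tubule-like cells of every mouse.

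Nfe2l2 was most abundant in neutrophil-like cells, not in the tubule. Its level there was 1270.1, 1278, 637 and 578 CPM in mice 1 to 4, a mean of 941 ± 386 (SD, n = 4). This was the highest of the 11 classes in each of the 4 mice, and mice 1 and 2 were about level with each other and above mice 3 and 4. Principal and connecting tubule-like cells of the collecting system followed, with 659, 409.6, 535 and 386 CPM (498 ± 126). The distance between these first 2 classes was more than the larger SD, whereas no later neighbours in the order were that far apart. Macrophage and monocyte-like cells had 682, 447, 338 and 233 CPM (425 ± 192). Distal convoluted tubule-like (341), thick ascending limb-like (285), intercalated-like (282), endothelial-like (281) and proximal tubule-like cells (222) followed in that order of their mean CPM. T and NK lymphocyte-like cells had the lowest mean CPM, 138 ± 32.5 (SD, n = 4). The unnamed cluster 15, which carried neutrophil and macrophage markers together, held Nfe2l2 at 1053 CPM in mouse 1 and 921 CPM in mouse 2.

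Keap1, the inhibitor and oxidant sensor, was spread evenly. Its mean CPM lay between 31.3 and 51.2 in 10 of the 11 classes, and none of these neighbours was apart by more than the larger SD. Endothelial-like cells were first with 57.5, 54.9, 60.2 and 32.3 CPM in mice 1 to 4 (51.2 ± 12.8, SD, n = 4). Neutrophil-like cells, first in Nfe2l2, were last in Keap1, with 12.1, 10.4, 47.8 and 5.28 CPM (18.9 ± 19.5). Mouse 3 was thus far from the other mice, and the mean without it was 9.27 CPM. The mouse 4 value rests on 2 UMIs in 200 cells. Dendritic-like cells, of which mouse 3 had 360, gave 107 CPM of Keap1 in that library.

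The neutrophil-like class was not made of the same clusters in each mouse. Clusters 0 and 6 held almost all of it in mice 1, 2 and 4, and cluster 16, led by the granule genes Camp, Ngp and Ltf of immature neutrophils, held 994 of the 997 cells of mouse 3. Keap1 was 9.83 to 12.4 CPM in clusters 0 and 6 of mice 1 and 2 and 47.8 CPM in cluster 16 of mouse 3. Nqo1 was 0.690 to 2.92 CPM in the former and 16.4 CPM in the latter, a value that rests on 151 UMIs. Osgin1 went the other way, with 78.6 to 88.0 CPM in clusters 0 and 6 of mice 1 and 2 and 38.4 CPM in cluster 16. Since each kind of cluster came from different mice, the mouse and the cluster cannot be told apart here.

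Glutathione synthesis begins with glutamate-cysteine ligase, whose catalytic subunit is Gclc and whose modifier subunit is Gclm. Gclc was led by intercalated-like cells, the acid- and base-secreting cells of the collecting system, with 909.9, 804, 1095 and 823 CPM in mice 1 to 4 (908 ± 133, SD, n = 4). Thick ascending limb-like cells had the same mean with a far wider spread, 545, 807, 1731 and 544 CPM (906 ± 563), and without mouse 3 that mean was 632 CPM. Distal convoluted tubule-like cells had 399, 404, 1016 and 304 CPM, again with mouse 3 above the other 3 mice. Proximal tubule-like cells had 441, 371, 675 and 84.1 CPM, with mouse 4 the lowest. The 5 tubular classes ended with principal and connecting tubule-like cells (284 ± 53.0), which stood above the next class, T and NK lymphocyte-like cells (70.8 ± 20.9), by more than the larger SD and in 4 of 4 mice. Neutrophil-like cells were lowest at 19.1 ± 6.91 CPM.

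Gclm had another order within the tubule. It was led by proximal tubule-like cells with 372, 455, 614 and 202 CPM in mice 1 to 4 (411 ± 172, SD, n = 4), followed by intercalated-like cells with 352, 264, 225 and 516 CPM (339 ± 129). These first 2 overlapped, and intercalated-like cells lay above principal and connecting tubule-like cells (174 ± 50.9) by more than the larger SD and in 4 of 4 mice. Thick ascending limb-like cells, second for Gclc, came after all other tubular classes for Gclm, at 106 ± 10.6 CPM. T and NK lymphocyte-like cells were lowest at 30.3 ± 8.29 CPM. Outside the named classes, the unnamed cluster 21, led by Cryab and Gdf15, had 226, 401, 449 and 454 CPM of Gclm.

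**Figure D2:**
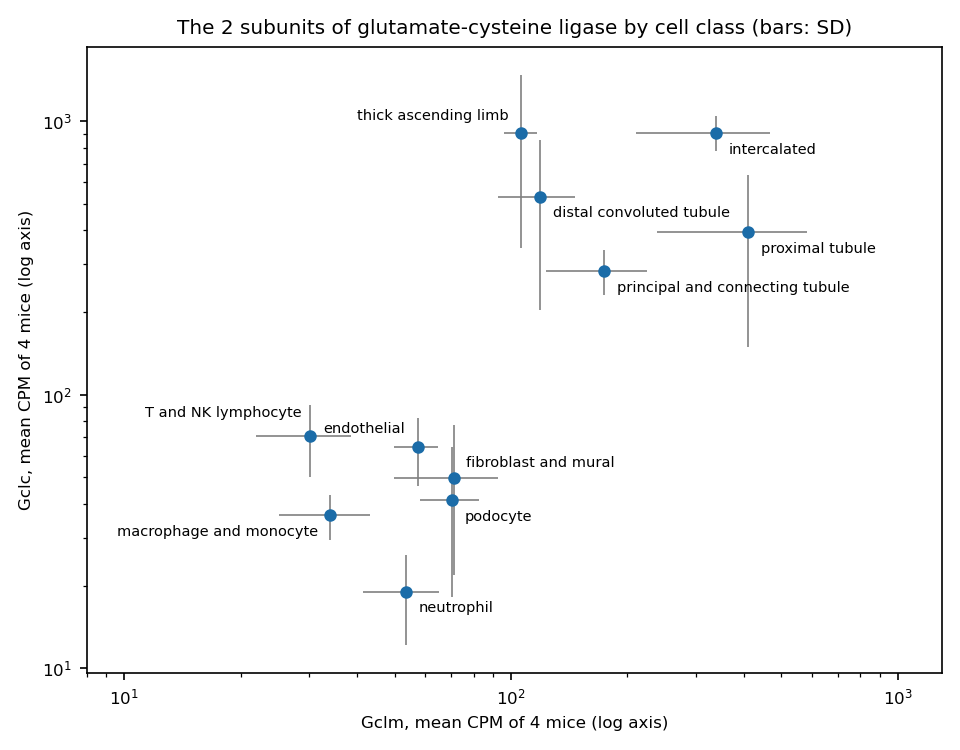
Mean CPM of Gclm (horizontal, log axis) and of Gclc (vertical, log axis) in the 11 classes, with the SD over 4 mice as bars. Thick ascending limb and intercalated cells have equal Gclc (906 and 908) but differ in Gclm (106 and 339).

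The thioredoxin arm was represented by Txnrd1, the cytosolic thioredoxin reductase, and Srxn1, sulfiredoxin, which repairs overoxidised peroxiredoxins. Txnrd1 was 507, 572, 407 and 211 CPM in proximal tubule-like cells of mice 1 to 4 (424 ± 158, SD, n = 4). Intercalated-like (326 ± 92.1) and principal and connecting tubule-like cells (311 ± 136) followed with overlapping ranges. No neighbours in the order of Txnrd1 were apart by more than the larger SD, down to macrophage and monocyte-like cells at 63.9 ± 36.1 CPM. In proximal tubule-like cells Srxn1 was 149, 163, 43.7 and 178 CPM (134 ± 61.0), the highest of any class in each of the 4 mice. Distal convoluted tubule-like cells had 97.4, 51.4, 21.8 and 143 CPM of Srxn1, and intercalated-like cells 83.5, 94.4, 3.44 and 78.1. In all 3 classes the lowest value was that of mouse 3. Principal and connecting tubule-like cells (32.8 ± 9.75) were above endothelial-like cells (16.4 ± 4.52) in 4 of 4 mice, and T and NK lymphocyte-like cells were last at 6.16 ± 4.40 CPM.

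Nqo1 encodes a quinone reductase that is a classical readout of NRF2, and Me1 encodes malic enzyme, a source of cytosolic NADPH. Nqo1 was 116, 157, 17.7 and 58.9 CPM in proximal tubule-like cells of mice 1 to 4 (87.3 ± 61.4, SD, n = 4). Mouse 3 was far below mice 1 and 2. Nqo1 was highest there in 3 of 4 mice, and in mouse 3 distal convoluted tubule-like cells were highest with 29.7 CPM. In intercalated-like cells of mouse 3, 0 of 581696 UMIs were Nqo1, which allows up to 5.16 CPM (3 counts, for counting error alone), against 25.0 to 52.5 CPM in the other mice. Macrophage and monocyte-like cells had the least, 1.10 ± 0.753 CPM. Me1 was 177, 209, 236 and 79.2 CPM in proximal tubule-like cells (175 ± 68.4), highest there in every mouse and above the next class by more than the larger SD. That next class, principal and connecting tubule-like cells, ranged from 6.75 to 89.5 CPM, and its mean of 34.1 was 15.6 without mouse 2.

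Osgin1, an oxidative stress-induced growth inhibitor, had 2 peaks. Neutrophil-like cells had 85.9, 79.4, 38.4 and 92.4 CPM in mice 1 to 4 (74.0 ± 24.3, SD, n = 4) and proximal tubule-like cells 119, 60.7, 72.2 and 30.5 CPM (70.5 ± 36.6), so the ranges overlapped. Each was the highest class in 2 mice. Both were above the next class, principal and connecting tubule-like cells at 15.1 ± 9.02 CPM, and above macrophage and monocyte-like cells at 14.9 ± 6.91. Fibroblast and mural-like cells had the lowest mean, 2.37 ± 2.09 CPM, which rests on 6, 7, 17 and 0 UMIs.

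Free RNA from broken cells gives UMIs in cells that do not make a transcript. It was gauged by 5 proximal tubule genes (Slc34a1, Lrp2, Miox, Kap and Slc5a2), whose median level in the named classes outside the proximal tubule was 0.183% to 3.26% of that in proximal tubule-like cells of the same mouse. Me1 in neutrophil-like cells was 0% to 1.10% of its proximal tubule level and exceeded the gauge in 0 of 4 mice, so these UMIs are read as background. In macrophage and monocyte-like cells Me1 exceeded it in 1 of 4 mice and Nqo1 in 2 of 4. Gclm, Txnrd1 and Srxn1 exceeded it in 4 of 4 mice in neutrophil-like and in macrophage and monocyte-like cells. The gauge covers free RNA of the proximal tubule alone, so it was not read for Nfe2l2, Keap1, Gclc and Osgin1, which had a higher mean CPM in another class.

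A small injured-marker cluster, with 42 to 165 cells per mouse and carrying markers fixed for injured tubule but led by Stc2, Sfrp5 and Wnt16, was given no cell type name. Its Gclm was 197, 178, 184 and 214 CPM in mice 1 to 4 and its Osgin1 43.8, 46.9, 18.4 and 57.1 CPM. Nqo1 was 15.2% to 22.3% and Me1 3.71% to 27.1% of its level in proximal tubule-like cells of the same mouse. The gauge was not read here, since Lrp2, one of its genes, was among the markers of the cluster.

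Across the 11 class means, on the scale log2(mean CPM + 1), the pairwise Pearson correlations among Nqo1, Gclc, Gclm, Txnrd1, Srxn1 and Me1 ran from 0.61 to 0.95. The correlation was 0.93 between Nqo1 and Srxn1, 0.95 between Gclm and Txnrd1, and 0.77 between Gclc and Gclm. Nfe2l2 had 0.006 with Nqo1, -0.12 with Gclc, 0.49 with Osgin1 and -0.60 with Keap1. These values describe 11 classes from the same 4 libraries and carry no test.

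Among 12194 genes with a mean of 5 CPM or more, the profiles most like each member were found the same way. For Nfe2l2 they included Sesn2 (0.88) and 9130230L23Rik (0.87). For Keap1 they were Rpa3 (0.98), Exosc10 (0.97) and Phf5a (0.97). Nqo1 was most like Tacc2 (0.95), Nudt12 (0.94) and Dmtn (0.94). Gclc was most like Myo19 (0.99), Svopl (0.98) and Atp6v0a4 (0.975), the last a proton pump subunit of intercalated cells. Gclm was most like Txnrd1 (0.95), Sox9 (0.93) and Inava (0.93). For Txnrd1 the first were Fras1 (0.96), Dact2 (0.95) and Sox9 (0.95). Srxn1 had Slc22a23 (0.98), Sox9 (0.96) and Esrrg (0.96). Osgin1 had Babam2 (0.90), Hspbap1 (0.90) and Plekhf2 (0.90). Me1 had Gm32461 (0.98), Chpt1 (0.96) and Ephx2 (0.93). Sox9, a transcription factor of tubular repair, was thus among the first 3 of Gclm, Txnrd1 and Srxn1. These 3 members correlated with each other at 0.86 to 0.95, so the 3 places are not separate results. A link to repair was not tested.

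The mice ranked differently for different members. Keap1 was highest in mouse 3 in 10 of 11 classes and lowest in mouse 4 in 10 of 11. Gclc was highest in mouse 3 in 9 of 11 classes and Txnrd1 in 8, whereas Nqo1, Srxn1 and Osgin1 were each lowest in mouse 3 in 7 of 11. Mouse 4 was lowest in all 11 classes for Txnrd1 and in 10 for Nfe2l2, but highest in 6 for Srxn1. Mouse 4 was also the library with the fewest UMIs per cell and the largest ribosomal share, and the mitochondrial limit removed 25.3% of the barcodes of mouse 3 against 3.01% in mouse 4. The part of these differences in the members' levels was not tested, and no label separates the mice.

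Differences between classes were tested with edgeR's quasi-likelihood test on counts summed per mouse and class, with the mouse as a block. Each such sum entered as a separate sample. Where a side of a comparison joined several classes, sums of the same mouse thus counted as replicates of that side. A shift shared by the classes of a mouse on the same side was not modelled. A gene passed at a Benjamini-Hochberg adjusted p under 0.05 over all genes tested and a log2 fold change of 1 or more in size. The wider pathway was followed in a list of 45 other genes, 10 regulators (such as small MAF proteins and Bach1, a repressor of the same elements) and 35 further targets.

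**Figure D3:**
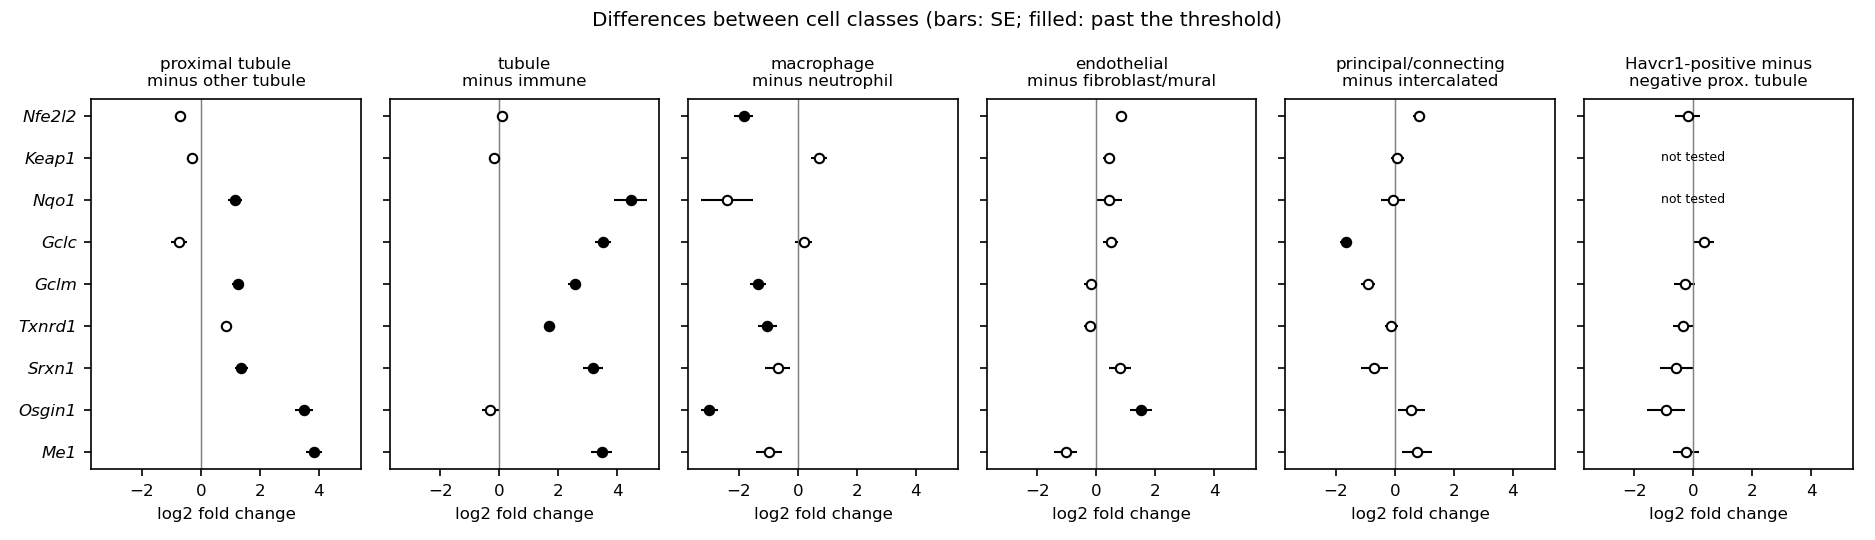
Log2 fold change of each member (horizontal axis, bars SE) in the 6 comparisons of classes. Filled points passed the threshold. Tubule against immune cells has 6 filled points to the right, macrophage against neutrophil cells 4 to the left, and the Havcr1 comparison has none.

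Tubular classes carried more of 6 targets than immune classes, while Nfe2l2, Keap1 and the target Osgin1 did not pass. The immune side was the unweighted mean of neutrophil-like, macrophage and monocyte-like, T and NK lymphocyte-like, B lymphocyte and plasma-like and dendritic-like cells. Dendritic-like cells entered from mouse 3 only, and B lymphocyte and plasma-like cells from mice 3 and 4 only. Of the 9 members, 6 were higher in the tubule and 0 lower, where 41.7% of the 18147 genes tested passed (22.5% higher, 19.1% lower). Nqo1 was higher by 4.45 on the log2 scale (SE 0.55, adjusted p = 1.91e-08), Gclc by 3.52 (SE 0.27, adjusted p = 3.35e-13) and Me1 by 3.46 (SE 0.37, adjusted p = 7.53e-10). Srxn1 (3.18), Gclm (2.55) and Txnrd1 (1.68) also passed. The SE and adjusted p of this comparison count the classes of each mouse as separate samples, so they do not measure spread over mice alone. The log2 fold change was 0.10 for Nfe2l2 (SE 0.15), -0.19 for Keap1 (SE 0.16) and -0.30 for Osgin1 (SE 0.28). The members' median was 2.55 and that of all genes 0.057. The 6 calls were made in each alternative run. Without mouse 3 Nqo1 was higher by 4.79, Gclc by 3.32 and Me1 by 4.92, and without mouse 4 they were higher by 4.39, 3.31 and 3.28.

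Of the wider list, 17 of 45 were higher in the tubule and 2 lower, where 22.5% of all genes passed as higher and 19.1% as lower. In both directions together the list's share was near the 41.7% of all genes. The median log2 fold change of the list was 0.61. The median was 0.39 without mouse 1, 0.40 without mouse 2 and 0.33 without mouse 4, and 13, 14 and 13 genes were then higher. The glutathione transferases Gsta4 (5.43), Gsta3 (5.17) and Gstm1 (2.94) had the largest log2 fold changes. Gsta and Gstm genes have close relatives among which reads can be split, so the share of each is uncertain. Lower in the tubule, and so higher in immune cells, were Slc7a11 (-3.03), the cystine importer that feeds glutathione synthesis, and the repressor Bach1 (-1.52). Slc7a11 was at -2.39 without mouse 3 and did not pass. Of the 10 regulators 1 was higher, Nfe2l1 (1.85), chosen after its value was seen, and 1 lower, Bach1.

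Within the tubule, proximal tubule-like cells held more of 5 members than the mean of the other tubular classes. These were Me1, higher by 3.84 on the log2 scale (SE 0.28, adjusted p = 3.46e-10), Osgin1 (3.50, SE 0.31, adjusted p = 8.17e-09), Srxn1 (1.37, SE 0.22), Gclm (1.26, SE 0.22) and Nqo1 (1.16, SE 0.23). None was lower, where 25.6% of 12304 genes passed, 13.4% as higher and 12.2% as lower. The other 4 stayed within 1 on the log2 scale: Txnrd1 was at 0.86 (adjusted p = 7.21e-05), Gclc at -0.75 (adjusted p = 0.0335), Nfe2l2 at -0.69 (adjusted p = 6.63e-04) and Keap1 at -0.30 (adjusted p = 0.0905). The members' median was 1.17 and that of all genes 0.012. The other tubular classes of each mouse entered as separate samples here too, so SE and adjusted p do not measure spread over mice alone. Without the mouse block 3 members passed, as Srxn1 (adjusted p = 0.0592) and Nqo1 (adjusted p = 0.0564) did not, and without mouse 2 Nqo1 was at 0.93. In a coarser clustering the classes were other sets of cells: distal convoluted tubule-like cells fell almost all into the principal and connecting tubule-like class, which grew from 1003 to 1668 cells, and the proximal tubule-like class from 2705 to 3042. There Gclm (0.67) and Nqo1 (0.75) fell short of the fold and Gclc passed as lower (-1.37), while Txnrd1 passed (1.04) in cells thinned to 1000 UMIs each.

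Of the wider list, 20 of the 44 tested were higher in the proximal tubule and 5 lower, with a median of 0.87. Of all genes tested, 13.4% passed as higher and 12.2% as lower. Of the 10 regulators 0 were higher and 1 lower, Nfe2l1 (-1.57). Sqstm1, a scaffold that binds KEAP1, was at 0.99 (adjusted p = 2.7e-04), just under the fold, and passed in DESeq2 (1.00), with the 20% mitochondrial limit (1.01), with the highest doublet scores removed (1.08), in thinned cells (1.05) and without mouse 4 (1.25). Both were named after their values were seen. The largest log2 fold changes of the list were those of Abcc2 (8.10), an apical exporter of glutathione conjugates, Gsta1 (4.53) and Idh1 (3.17), a source of NADPH. Gsta1 rests mainly on mouse 4, with 2.33, 5.20, 0.213 and 227 CPM in proximal tubule-like cells of mice 1 to 4, and was not tested without that mouse. Lower were Abcc1 (-3.74) and Abcc3 (-3.21), basolateral exporters, and the epoxide hydrolase Ephx1 (-2.51). Without mouse 4, 16 were higher and 5 lower, and without mouse 3, 21 and 4.

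The proximal tubule-like class held 3 clusters that split the targets. In mice 1, 2 and 4, cluster 14, led by Gsta2, Gsta1 and Acaa1b, had Srxn1 at 266, 279 and 229 CPM, and cluster 19, led by Snhg11 and Abcc2, had it at 80.1, 99.6 and 93.8. Gclc was the reverse, at 129, 169 and 53.9 CPM in cluster 14 and 564, 467 and 133 CPM in cluster 19. Osgin1 was 27.7, 34.2 and 15.5 CPM in cluster 14 and 164, 78.6 and 54.2 CPM in cluster 19. In each of these 3 mice the clusters thus differed in opposite directions for Srxn1 and for Gclc and Osgin1. Of the markers fixed for injured tubule, cluster 19 carried Havcr1, Sox9 and Sox4, and cluster 14 Sox4 alone. Their median UMIs per cell were 4073 in cluster 19 and 1697 in cluster 14, and mouse 4 held 924 of the 1171 cells of cluster 14. The part of these differences in the split was not tested. Cluster 26 carried Havcr1, Sox9, Sox4, Krt8 and Krt20 and came mostly from mouse 3 (520 of its 561 cells). It had Gclm at 868 CPM in mouse 3 against 240 CPM in cluster 19 of the same mouse. The members were left out of the genes that formed the clusters, but genes correlated with them were not, so no test is given.

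Among phagocytes, 4 members passed the threshold as higher in neutrophils. Macrophage and monocyte-like cells had less of 4 members than neutrophil-like cells and more of 0, where 43.4% of 13505 genes passed, 24% as higher and 19.4% as lower. In both directions together the members' share was near that of all genes. Osgin1 was at -3.01 on the log2 scale (SE 0.29, adjusted p = 8.17e-04), Nfe2l2 at -1.84 (SE 0.32, adjusted p = 0.00426), Gclm at -1.36 (SE 0.27, adjusted p = 0.0061) and Txnrd1 at -1.03 (SE 0.31, adjusted p = 0.0265). Nqo1 (-2.41, adjusted p = 0.0546), Me1 (-0.99, adjusted p = 0.0985), Keap1 (0.72, adjusted p = 0.0595), Srxn1 (-0.68) and Gclc (0.20) did not pass. The members' median was -1.03 and that of all genes 0.039. Nfe2l2 was lower in macrophages by -1.98 without mouse 3 and -1.95 without mouse 4, and Osgin1 by -3.16 and -2.85.

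Some of these calls were less firm than others. Txnrd1 lost its call without mouse 1, 2 or 4 (adjusted p = 0.138, 0.174 and 0.0519), without the block (adjusted p = 0.113), without the filter on low counts (adjusted p = 0.0855), and in DESeq2 and in thinned cells, where it was at -0.79 and -0.97. In DESeq2, which differs in scaling and in its test, the median of all genes was 0.293, and 4172 genes were higher and 2201 lower against 3245 and 2615 in edgeR. Nfe2l2, Gclm and Osgin1 passed as lower there too. Nqo1 passed without the block (-2.97, adjusted p = 0.0387) and without the filter (-2.44, adjusted p = 4.69e-04), and it could not be tested without mouse 3. The macrophage-like class also came from different clusters in different mice, cluster 1 in mouse 4, clusters 8 and 11 in mouse 3 and mainly cluster 9 in mice 1 and 2. Cluster 8, with 1505 of the 2863 cells of mouse 3, also carried the dendritic markers Ccr7 and Fscn1, and in the coarser clustering it fell into an unnamed cluster, which left 1366 macrophage and monocyte-like cells in mouse 3. There the same 4 members passed as lower, Osgin1 at -2.97, Nfe2l2 at -1.87, Gclm at -1.24 and Txnrd1 at -1.07.

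Genes of the wider list passed in both directions in the same comparison. Of 40 genes tested, 11 were lower and 5 higher in macrophage and monocyte-like cells, with a median of -0.34. Of all genes tested, 19.4% passed as lower and 24% as higher. In both directions together the list's share was no larger than the 43.4% of all genes. Slc7a11 had the largest log2 fold change (-4.55, SE 0.45), with 648, 439.7, 491 and 1153 CPM in neutrophil-like cells of mice 1 to 4 and 110.5, 38.6, 35.6 and 22.8 CPM in macrophage and monocyte-like cells. Glutathione reductase, Gsr (-3.26, SE 0.63), was at 1245 to 2603 CPM in the former and 64.8 to 562 CPM in the latter, and the groups did not overlap for either gene. Next was Maff (-1.84), a small MAF partner of NRF2. Higher in macrophages were Abcc3 (4.16), the peroxidase Prdx1 (2.60) and the biliverdin reductase Blvra (2.40). Prdx1 was at 289 to 663 CPM in them and at 13.2 to 189 CPM in neutrophil-like cells. Gsr was at -2.59 without mouse 4, and without mouse 3 Abcc3 was at 5.66 and Blvra at 3.15. In DESeq2 the split of the list was 10 higher and 7 lower, without the block 3 and 6, without mouse 3 9 and 14, and without mouse 4 6 and 12.

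**Figure D4:**
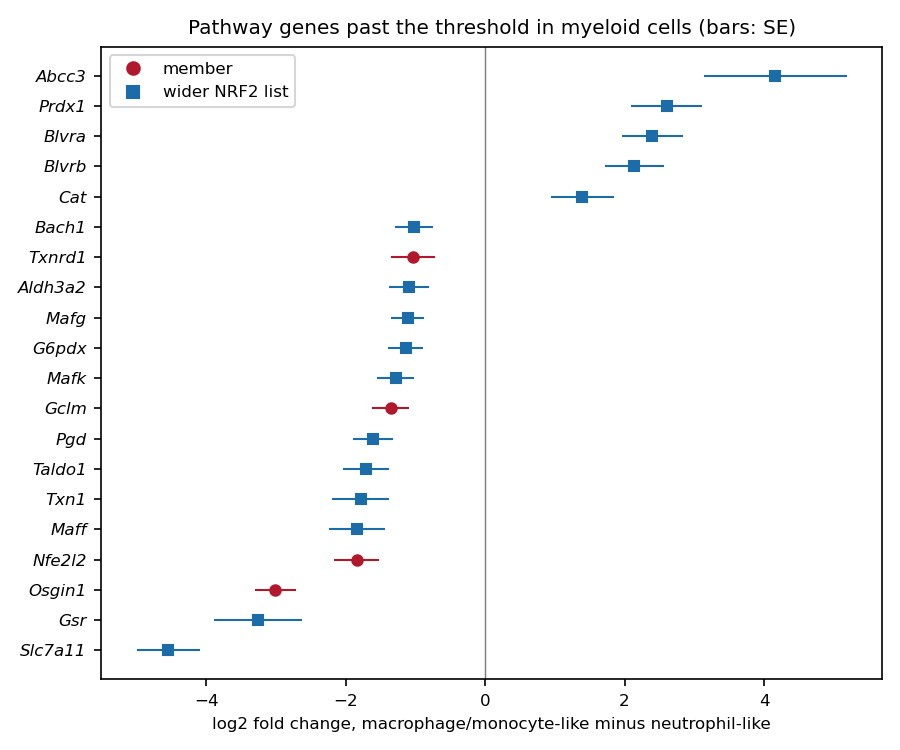
Members (circles) and genes of the wider list (squares) that passed the threshold between macrophage and monocyte-like and neutrophil-like cells, by log2 fold change on the horizontal axis with SE bars. The 4 members lie among the 15 genes to the left, and 5 genes lie to the right.

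Between vessel and stroma 1 of 9 members passed, a smaller share than that of all genes. Osgin1 was higher in endothelial-like than in fibroblast and mural-like cells by 1.52 on the log2 scale (SE 0.38, adjusted p = 0.0207), where 23.6% of 13103 genes passed, 11.2% as higher and 12.4% as lower. Endothelial-like cells came from clusters 2 and 20 in mouse 3, mainly from cluster 4 in mouse 4 and mainly from cluster 5 in mice 1 and 2. Fibroblast and mural-like cells came mainly from cluster 7, led by Myh11, Rgs5 and Ren1, in mice 1 to 3. In mouse 4, 87 of the 100 came from cluster 31, led by C7 and Dcn, so the class was not made alike in each mouse. The call was lost without mouse 1 (adjusted p = 0.0973), without mouse 2 (adjusted p = 0.0863) and without the block (adjusted p = 0.085), and it rests on few UMIs in stromal cells. Nfe2l2 was at 0.84 (SE 0.18, adjusted p = 0.0109), under the fold, and Me1 at -1.03 (adjusted p = 0.0875), which passed without mouse 3 (-1.57, adjusted p = 0.0235). Of 42 genes of the wider list 2 were higher, the exporters Abcc4 (2.84) and Abcc3 (1.81), and 5 lower, led by the glutathione transferases Gstm1 (-2.73), Gsta4 (-1.58) and Gstp1 (-1.42). Without mouse 2, 2 were higher and 1 lower, and without the block 2 and 1.

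In the collecting system 1 of 9 members passed, a share no larger than that of all genes. Gclc was lower in principal and connecting tubule-like than in intercalated-like cells by -1.66 on the log2 scale (SE 0.20, adjusted p = 4.85e-04), where 13.8% of 10031 genes passed (7.43% higher, 6.42% lower). Without the block its adjusted p was 0.0613, at -1.61. Gclm (-0.92, adjusted p = 0.0277) and Nfe2l2 (0.81, adjusted p = 0.015) were under the fold. Gclm passed without mouse 2 (-1.19) and in the coarser clustering (-1.04), whose principal and connecting class takes in distal convoluted tubule-like cells, and Srxn1 without mouse 3 (-1.14). Of 42 genes of the wider list 3 were higher in principal and connecting tubule-like cells, Idh1 (1.94), Blvrb (1.20) and Ephx1 (1.14), and 2 lower, Gstp1 (-1.29) and Abcc1 (-1.20). Without the block 1 was higher and 0 lower.

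Havcr1 encodes KIM-1, a marker of injured proximal tubule, and proximal tubule-like cells with and without a Havcr1 UMI were compared after thinning each cell to 1000 UMIs. None of the 7 members tested passed in edgeR, and none had an unadjusted p under 0.05 there or in DESeq2, where 2.05% of 4585 genes passed in edgeR (0.218% higher, 1.83% lower). Havcr1 itself, which defined the split, is counted among the genes that passed as higher and is no result. In cells not thinned, Gclc was at 0.66 (unadjusted p = 0.00109, adjusted p = 0.0549 in edgeR) and Nfe2l2 at -0.40 (unadjusted p = 0.036, adjusted p = 0.245 in edgeR), and in the coarser clustering Gclc was at 0.72 (unadjusted p = 0.0463, adjusted p = 0.369 in edgeR). Only mice 1, 3 and 4 entered, with 22, 141 and 23 positive cells, since mouse 2 had 14. The largest log2 fold changes were those of Osgin1 (-0.94, SE 0.64, adjusted p = 0.57), Srxn1 (-0.59, SE 0.56) and Gclc (0.37, SE 0.34). In mouse 3 Gclc was 1128 CPM in positive and 692 CPM in negative cells, and in mouse 4 it was 217 and 77.5 CPM, the former from 5 UMIs. In mouse 1 the 22 positive cells held 11 UMIs of Gclc. Keap1 and Nqo1 had too few UMIs to be tested, and at this depth a change of the size of these errors was not detectable.

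In the wider list 0 of 32 were higher and 5 lower in Havcr1-positive cells, where 0.218% of all 4585 genes were higher and 1.83% lower. The list's median was -0.51 against -0.155 over all genes. In cells not thinned the median was -0.15 against -0.010 over all genes, and 3 of 40 were lower. The 5 genes lower in thinned cells were Gsta3 (-2.67, adjusted p = 0.0339), Idh1 (-2.30, adjusted p = 0.0034), Cbr1 (-1.995, adjusted p = 0.0339), Gstm1 (-1.77) and Ftl1 (-1.18), the last with near-identical copies in the genome. DESeq2 called 1 gene lower, and 2 were lower with the highest doublet scores removed and 3 in the coarser clustering. Without the block 0 passed, as with a mitochondrial limit of 20%, and leaving out mouse 1, 3 or 4 left 1, 3 and 2. Without mouse 3 Gsta3 was at -1.82 and did not pass, and without mouse 1 Cbr1 was at -2.80 and did not pass.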

How the data were processed

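Single-cell RNA libraries of kidneys of 4 mice were analysed. The authors deposited 1 sparse matrix of raw UMI counts per library, made with Cell Ranger 9.0.1 per the file headers. The submitters' processing notes also name Seurat 4.1.1, with no role. Genome build and annotation are not given in the sources used here. Barcodes with 500 UMIs, 300 genes and under 50% mitochondrial UMIs were kept. Scrublet marked 113 doublets, 111 of them in mouse 2, and these were removed; why it marked so few in the other libraries was not tested. An alternative removed the highest scores (0.8% per 1000 cells).

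Cells were clustered in scanpy 1.11.5 with leidenalg 0.10.2 (2000 variable genes without the members and the wider list, 30 components, 15 neighbours, resolution 1, no integration). A class needed 3 or more markers, each in 20% of cells and 2-fold above the rest, and a cluster stayed unnamed if it also carried markers of another lineage. These limits were set after the clusters were seen. T and NK cells were read as 1 class, and no thin limb or erythroid cluster was named. No library was a copy of another (the smallest chi-square over its degrees of freedom was 179).

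Counts were summed per mouse and class (20 cells or more) and tested in edgeR 4.0.16 (R 4.3.3) with TMM scaling and filterByExpr. The mouse was a block, since both classes of a comparison come from the same mice. Where a side joined several classes, each class sum of a mouse entered as a separate sample. DESeq2 1.42.0 was an alternative. The fits were also run on simulated data in which few genes changed, as many up as down. That check does not cover the larger shares of genes that passed in most comparisons. Because the matrices hold counts, precision follows the UMIs behind a value, and intervals and limits cover counting error only. Neighbouring classes were called apart where means differed by more than the larger SD. This rule does not use the pairing of classes within mice, so neighbours not called apart could still keep their order in every mouse. Txnrd1 did so between principal and connecting tubule-like and distal convoluted tubule-like cells. Named genes were the members, the 3 largest passing genes of the wider list in each direction, and the 3 genes most like each member. A gene planned for the free RNA gauge and a gene most like Nfe2l2 are not reported here. Members and lists were chosen with earlier results of these data known.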

Additional observations from a re-analysis of the deposited data

Results flagged for a closer look

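Of 99 sets of 4 mice (9 members in 11 classes), 6 had 1 mouse far from the other 3, about as many as the 1 in 20 that chance gives. In neutrophil-like cells mouse 3 was far above the others for Keap1, at 47.78 CPM against 5.28 to 12.1, and for Nqo1, at 16.36 CPM against 0 to 1.82, and mouse 4 was far below them for Txnrd1, at 36.95 CPM against 86.9 to 88.3. In macrophage and monocyte-like cells Nqo1 was far higher in mouse 1, at 2.224 CPM (9 UMIs) against 0.605 to 0.838, and Gclm far lower in mouse 4, at 20.76 CPM against 36.6 to 39.8. Gclc in distal convoluted tubule-like cells was far higher in mouse 3, at 1016 CPM against 304 to 404.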

How the results depend on the processing

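The 6 members called between tubule and immune cells were called in every alternative, and the number of members highest in the proximal tubule-like class, 5, was 4 to 6 over the alternatives run on levels. Members called numbered 3 (main 5) in the proximal tubule comparison without a replicate block. In the endothelial comparison (main 1) they numbered 0 without the replicate block, 0 in thinned cells (where Osgin1 could not be tested), and 0 to 2 leaving out each mouse. In the collecting system (main 1) they numbered 0 without the replicate block, 2 at clustering resolution 0.5, and 1 to 2 leaving out each mouse. Genes called without the replicate block numbered 2021 (main 3086) in the endothelial, 3344 (main 5860) in the macrophage, 556 (main 1389) in the collecting system and 1 (main 94) in the Havcr1 comparison. The 94 include Havcr1 itself, which defined that split, and it was not left out of the counts under alternatives. The block pairs classes of 1 mouse. Without the low-count filter they numbered 4643 and 2160 in the endothelial and collecting system comparisons. In thinned cells they numbered 1227 (main 3152), 2001, 279 and 4799 (main 7560) in the proximal tubule, endothelial, collecting system and tubule against immune comparisons. Leaving out each mouse gave 3343 to 7423 in the macrophage and 5 to 114 in the Havcr1 comparison, which also gave 12 in DESeq2, 14 with a 20% mitochondrial limit and 21 with the highest doublet scores removed. Mouse 2 was not in that fit. Values under alternatives that changed sign, none past the threshold on either side, were as follows. In the Havcr1 comparison Gclm was at -0.57 to 0.069 leaving out each mouse, Nfe2l2 at 0.088 with the highest doublet scores removed, Me1 at 0.0010 and 0.057, Osgin1 at 0.41 and Txnrd1 at 0.0029 (not thinned, and for the second value of Me1 at resolution 0.5). Gclm between endothelial and stromal cells was at -0.35 to 0.041 leaving out each mouse. In the collecting system Keap1 was at -0.039 to 0.35 leaving out each mouse and -0.000155 at resolution 0.5, Osgin1 at -0.038 at resolution 0.5, and Nqo1 at -0.32 to 0.38 leaving out each mouse, 0.15 in DESeq2 and 0.32 at resolution 0.5. Between tubule and immune cells Keap1 was at -0.52 to 0.19 leaving out each mouse and 0.023 at resolution 0.5, Osgin1 at 0.50 in thinned cells, and Nfe2l2 at -0.19 to 0.095 leaving out each mouse, -0.030 without the filter, -0.11 at the 20% limit, -0.16 in thinned cells and -0.023 at resolution 0.5. The median of all genes in that comparison ranged from -0.173 to 0.205 over the alternatives. The cause was not tested in any of these cases. Of 863 results for single genes under alternatives, 768 kept direction and call, 61 lost and 11 gained a call and 23 changed sign. Thinning leaves out 3410 cells and limits low members such as Nqo1, Keap1 and Osgin1.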
